A study of Mus musculus with 6 samples.

Results

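Tnfrsf14, Ssu72, Mxra8 and B3galt6 are 4 mouse genes that lie near each other towards one end of chromosome 4. They were followed here in cultured bone marrow cells that lack both cryptochromes, the repressor proteins of the circadian clock, and in wild type cells. The genes were chosen by their closeness in gene order and by the difference of their signals between DKO and WT on these same arrays, so their differences below are given as a description with no test. A probe set is the group of short DNA probes on an array that together read 1 transcript, and all 9 probe sets listed under a single one of these symbols are reported: 1 of Tnfrsf14, 4 of Ssu72, 1 of Mxra8 and 3 of B3galt6, of 34945 probe sets for 18193 genes named on the array. Marrow cells of mice lacking Cry1 and Cry2 (labelled DKO) and of wild type mice (WT) were grown in medium with 20% serum and 10 ng/ml interleukin-7, a cytokine that sustains early B lymphocytes, and there was no further treatment. Strain C57BL/6 is given for both genotypes, and no age of the animals, and each genotype has 3 arrays. Separate animals or cultures are not named for the arrays of a genotype, and p-values therefore reflect only the scatter among these 6 samples, part of which may be technical. With so few arrays, every value has limited precision.

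TNFRSF14, also called HVEM, is a receptor of the tumour necrosis factor family on lymphocytes and myeloid cells. It is activated by the ligands LIGHT (the product of Tnfsf14) and lymphotoxin alpha, and it engages BTLA and CD160 on neighbouring or the same cells, where BTLA delivers an inhibitory signal. SSU72 is a phosphatase that removes phosphate from the tail of RNA polymerase II and takes part in forming the end of messenger RNAs. MXRA8 is an adhesion protein with immunoglobulin domains that binds integrins and serves as an entry receptor for arthritis-causing alphaviruses. B3GALT6 is a Golgi enzyme that adds a galactose to the linker by which heparan and chondroitin sulfate chains are attached to proteoglycans.

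The sequence just before each gene's start is shown because the members were chosen as neighbours, and a reader may ask whether they share clock elements. Each window holds the 250 bases before the RefSeq start, read 5′ to 3′ on the gene's strand in build GRCm38.p6, and all 4 genes were matched. The windows lie at chr4:154928078-154928327 on the minus strand for Tnfrsf14, chr4:155704565-155704814 on the plus strand for Ssu72, chr4:155839430-155839679 on the plus strand for Mxra8 and chr4:155992679-155992928 on the minus strand for B3galt6. Capitals mark the motifs found in Ssu72 and, in B3galt6, every copy of a repeated 16-base unit.
Tnfrsf14: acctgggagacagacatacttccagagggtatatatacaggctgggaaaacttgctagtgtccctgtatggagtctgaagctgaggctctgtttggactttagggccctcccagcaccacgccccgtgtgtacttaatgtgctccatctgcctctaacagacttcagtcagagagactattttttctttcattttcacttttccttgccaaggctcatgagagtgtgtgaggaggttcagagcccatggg
Ssu72: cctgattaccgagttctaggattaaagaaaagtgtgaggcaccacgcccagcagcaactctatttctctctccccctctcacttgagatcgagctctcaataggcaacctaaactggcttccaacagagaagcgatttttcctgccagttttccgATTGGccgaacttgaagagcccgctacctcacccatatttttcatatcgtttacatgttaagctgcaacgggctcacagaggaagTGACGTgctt
Mxra8: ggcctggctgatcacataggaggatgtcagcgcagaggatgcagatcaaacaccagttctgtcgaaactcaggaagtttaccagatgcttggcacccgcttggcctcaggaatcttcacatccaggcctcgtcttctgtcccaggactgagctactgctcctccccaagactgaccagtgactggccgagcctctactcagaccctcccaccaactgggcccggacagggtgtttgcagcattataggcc
B3galt6: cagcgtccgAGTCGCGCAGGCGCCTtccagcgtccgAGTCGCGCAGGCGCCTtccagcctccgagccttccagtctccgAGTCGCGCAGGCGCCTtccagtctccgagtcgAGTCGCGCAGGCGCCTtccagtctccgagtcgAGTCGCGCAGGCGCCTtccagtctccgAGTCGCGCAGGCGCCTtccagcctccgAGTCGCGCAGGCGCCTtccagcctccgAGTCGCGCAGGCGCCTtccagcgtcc

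Both strands were searched for the clock motifs CACGTG (the E-box, in 6.02% of all 32851 windows of this length), CACGTT (a variant of it, in 3.85%), AGGTCA (the half-site bound by REV-ERB and ROR proteins, in 14%) and TTACGTAA (the D-box, in 0.113%). None of the 4 windows held any of them. General promoter motifs were searched too, namely TGACGT (the half-site of the cAMP element, in 6.47% of windows), GGGCGG (the GC box, in 32.7%), CCAAT (the CCAAT box, in 33.8%) and TATAAA (the TATA box, in 12.4%). Among the members only Ssu72 held any, with 1 cAMP half-site close to the start and 1 CCAAT box on the opposite strand. No motif overlapped another there. A missing match says only that these letters are not in these windows. The B3galt6 window held 8 copies of AGTCGCGCAGGCGCCT, and a 16-base unit occurred at least as often within 0.517% of all windows. Its share of G and C was 71.6%, where the other members had 48.0% (Ssu72), 49.2% (Tnfrsf14) and 56.8% (Mxra8) and the median of all windows was 52.4%.

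WT 2 stood apart from the other 5 arrays. Its ratio of 3′ to 5′ signal was 824 for the Actb control, where the others read 1.47 to 2.05, and its correlation with them across probe sets was 0.832 to 0.848 on the log2 scale. Values without WT 2 are therefore given beside those of all arrays. Signals are on a linear scale as deposited, while differences are DKO minus WT of log2(signal + 16), with each array centred on its median. The median signal was 44.0 to 55.3 on the other arrays and 115 on WT 2, so a signal is best read against the percentile it holds on its own array.

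Tnfrsf14 signal was above the array median in all DKO arrays and dim in all WT arrays. Its single probe set, designed on a full-length cDNA, read 173, 293 and 89.8 in DKO 1 to 3 against 12.1, 10.3 and 8.28 in WT 1 to 3. The genotypes did not overlap, and DKO 3, the lowest DKO array, was still well above WT 1, the highest WT array. On the DKO arrays the signal stood at percentile 60.5 to 71.5 of all probe sets and on the WT arrays at percentile 8.17 to 21.0, below the array median. On the log2 scale the values were 7.68 ± 0.67 in DKO and 4.55 ± 0.57 in WT (each SD, n = 3), a difference of 3.12 (standard error 0.45). Without WT 2 the difference was 2.80. Because the WT signals are below their arrays' medians, the size depends on the pseudocount, and it ranged from 1.87 with a pseudocount of 64 to 4.28 with a pseudocount of 1, so no fold is given.

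Mxra8 also read higher in DKO, with little spread between arrays of a genotype. Its single probe set read 264, 237 and 169 in DKO 1 to 3 against 54.3, 120 and 55.7 in WT 1 to 3. The groups did not overlap, and WT 2, whose signal was higher than that of the other WT arrays, held a like percentile on its array (51.2, against 50 and 53.1 on WT 1 and WT 3). On the centred log2 scale Mxra8 stood at 8.04 ± 0.18 in DKO and 6.31 ± 0.11 in WT (each SD, n = 3). The difference was 1.73 (standard error 0.27), it was 1.71 without WT 2, and it lay between 1.65 and 1.83 with any 1 array left out. MXRA8 is best known from fibroblasts and other mesenchymal cells. The stromal markers fixed for these cultures were dim, with only 3 of 10 above the filter on low signal and 0 of the 10 at 0. They summed to 290, 292 and 166 in DKO 1 to 3 against 295, 874 and 261 in WT 1 to 3. These sums are not centred, and the highest is that of WT 2. The part of stromal cells in the Mxra8 signal was not tested.

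The 4 Ssu72 probe sets did not tell 1 story. The brightest one, 1425674_a_at, designed on a full-length cDNA, read 1832, 2160 and 3506 in DKO 1 to 3 against 2530, 1066 and 3468 in WT 1 to 3. It was at percentile 88.4 to 94.5 on every array, and the genotypes overlapped. Its difference was 0.50 (standard error 0.77), and it turned to -0.32 without WT 2. The widest gap was in 1441282_at. Its target was of another class, sorted neither as a RefSeq messenger RNA nor as a full-length cDNA and not examined further. This probe set gave 272, 279 and 195 in DKO 1 to 3 against 40.6, 124 and 32.1 in WT 1 to 3. Here all DKO arrays lay above all WT arrays on the centred scale, at 8.19 ± 0.14 against 6.02 ± 0.25 (each SD, n = 3), a difference of 2.16 (standard error 0.28) and of 2.31 without WT 2. A dimmer probe set, 1431090_at, differed by 1.72 (1.45 without WT 2), with signals of 38.0, 121 and 64.6 in DKO 1 to 3 against 6.20, 18.5 and 25.8 in WT 1 to 3. The last, 1446225_at, read 120, 88.8 and 64 in DKO and 62.1, 154 and 47.8 in WT, so WT 2 had the highest signal before centring. Its difference was 0.46 with centring and 0.14 without. Thus the probe sets in which DKO read higher without overlap were the 3 with targets of that other class. The one with the highest signal, designed on a full-length cDNA, was not among them. The Mxra8 probe set had a target of that other class too. Whether the targets of the 3 Ssu72 probe sets lie in exons, in introns or on the opposite strand of Ssu72 was not analysed here.

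B3galt6 read lower in DKO in 2 of its 3 probe sets, the opposite side from Tnfrsf14 and Mxra8. The larger gap was in 1435252_at, at 14.7, 15.2 and 11.4 in DKO 1 to 3 against 117, 372 and 143 in WT 1 to 3. Its target was sorted neither as a RefSeq messenger RNA nor as a full-length cDNA. The DKO signals were at percentile 23.5 to 24.1 of their arrays and the WT signals at percentile 61.3 to 76.7, so the groups lay on opposite sides of the median. The difference was -2.45 (standard error 0.28), at 5.05 ± 0.04 in DKO and 7.50 ± 0.33 in WT (each SD, n = 3), and it was -2.31 without WT 2. With pseudocounts of 64 and 1 it was -1.50 and -3.28. Probe set 1440340_at, with a target of the same class, read 40.8, 64.1 and 46.8 in DKO 1 to 3 against 156, 276 and 86.0 in WT 1 to 3, a difference of -1.07 (-1.02 without WT 2). The third, 1421155_at, was designed on the RefSeq messenger RNA and was the brightest, at 179, 214 and 246 in DKO 1 to 3 against 324, 285 and 308 in WT 1 to 3. On the linear scale every DKO array was below every WT array, but on the centred scale the genotypes overlapped through WT 2 alone, with a difference of -0.19 (-0.56 without WT 2). The brightest probe set had the smallest difference of the gene.

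**Figure D1:**
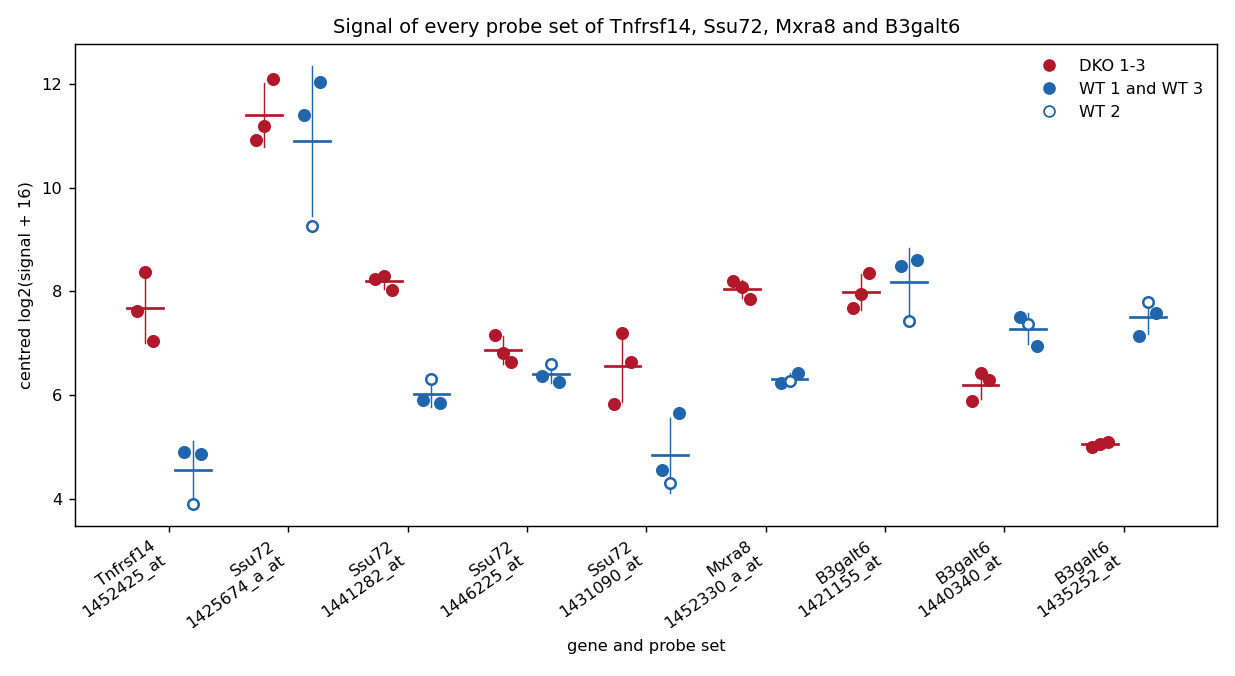
Centred log2(signal + 16) of each of the 9 probe sets, with DKO arrays in red and WT arrays in blue (WT 2 open); horizontal bars are group means and vertical bars 1 SD (n = 3). Tnfrsf14, Mxra8 and 3 probe sets of Ssu72 are higher in DKO without overlap, 2 probe sets of B3galt6 are lower without overlap, and the brightest probe sets of Ssu72 and B3galt6 overlap.

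In all, on the centred scale 5 of the 9 probe sets had every DKO array above every WT array, 2 had every DKO array below, and 2 overlapped. Over the 27022 probe sets that passed the filter on low signal, which all 9 did, these shares were 6.97% and 3.29%. Since this contrast chose the members, nothing is read from the count. On the centred scale DKO 1 was the lowest of the 3 in 5 probe sets and DKO 3 in 4, and DKO 2 was the highest in 4. The limma fit over all tested probe sets called 2 of them (0.0074%) at a Benjamini-Hochberg adjusted p under 0.05, both of the immunoglobulin gene Igha, and 844 had an unadjusted p under 0.05.

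The members are near each other but not adjacent. In the RefSeq gene order of chromosome 4, Ssu72 comes 27 places after Tnfrsf14, Mxra8 39 places after it and B3galt6 51 places after it, and 48 other annotated genes lie between Tnfrsf14 and B3galt6. Of these, 31 had a named probe set and 24 were tested, each gene by its probe set with the highest mean signal. Their differences were mostly small, 19 on the higher and 5 on the lower side in DKO with a median of 0.41, where 70.2% of all 12627 tested genes were on the higher side with a median of 0.30. Without WT 2 their median was 0.14 and that of all genes 0.01, with 15 higher and 9 lower. limma called 0 of the 24, 0 had an unadjusted p under 0.05, and their lowest adjusted p was 0.822.

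Of the 8 tested genes nearest to the members on either side, Ccnl2 was the only one whose genotypes did not overlap. Among all tested genes 8.53% were higher and 2.06% lower without overlap, so nothing is read from this count. Hes5, a Notch-induced repressor directly after Tnfrsf14, differed by 1.01 (standard error 0.74; 1.62 without WT 2) and overlapped, with signals of 661, 481 and 108 in DKO 1 to 3 against 100, 769 and 91.0 in WT 1 to 3. On the other side, Prxl2b, which encodes a prostaglandin synthase, read -0.55 (standard error 0.40; -0.73 without WT 2). Beside Ssu72 stood Fndc10 at -0.36 (-0.25 without WT 2) and Atad3a, a mitochondrial membrane ATPase gene, at -0.48 (-0.28 without WT 2), whose 4 probe sets ranged from -0.75 to 0.33. Beside Mxra8 stood Ccnl2, a cyclin of the splicing machinery, at 0.93 (0.34 without WT 2, where its 3 probe sets read -0.61 to 0.34), and Dvl1, a Wnt signalling scaffold, at -0.17 (0.31 without WT 2), with its other probe set at 0.97 (0.40 without WT 2). B3galt6 lay between C1qtnf12 at 0.40 (0.04 without WT 2), whose 4 probe sets ranged from -1.26 to 1.63, and Sdf4, a calcium-binding protein of the Golgi, at 1.00 (0.21 without WT 2). None of these neighbours passed the threshold, with limma adjusted p of 0.822 to 0.911.

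Genes of the stretch in which every DKO array lay above every WT array on the centred log2 scale were Pank4, Mib2, Ccnl2 and Ints11 between the members and Tnfrsf18 beyond B3galt6. These were 5 of 43 tested genes, counting 25 annotated genes beyond each end, where 8.53% of all tested genes had this pattern. In 0 of the 43 did every DKO array lie below every WT array, where 2.06% of all tested genes did. In the signals as deposited, Mib2 and Tnfrsf18 overlapped. Tnfrsf18, which encodes GITR, another costimulatory receptor of the tumour necrosis factor family, read 534, 663 and 197 in DKO 1 to 3 against 142, 207 and 177 in WT 1 to 3, so WT 2 was above DKO 3 before centring. Its difference was 1.49 (standard error 0.48, limma adjusted p = 0.822), and it was 1.28 without WT 2. Ints11, the endonuclease of the Integrator complex that cuts nascent transcripts, differed by 1.30 (0.56 without WT 2), Pank4 by 0.84 (0.57 without WT 2) and the ubiquitin ligase gene Mib2 by 0.77 (0.45 without WT 2). Of the flanking genes, 5 of 8 before Tnfrsf14 and 7 of 11 after B3galt6 were on the higher side.

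**Figure D2:**
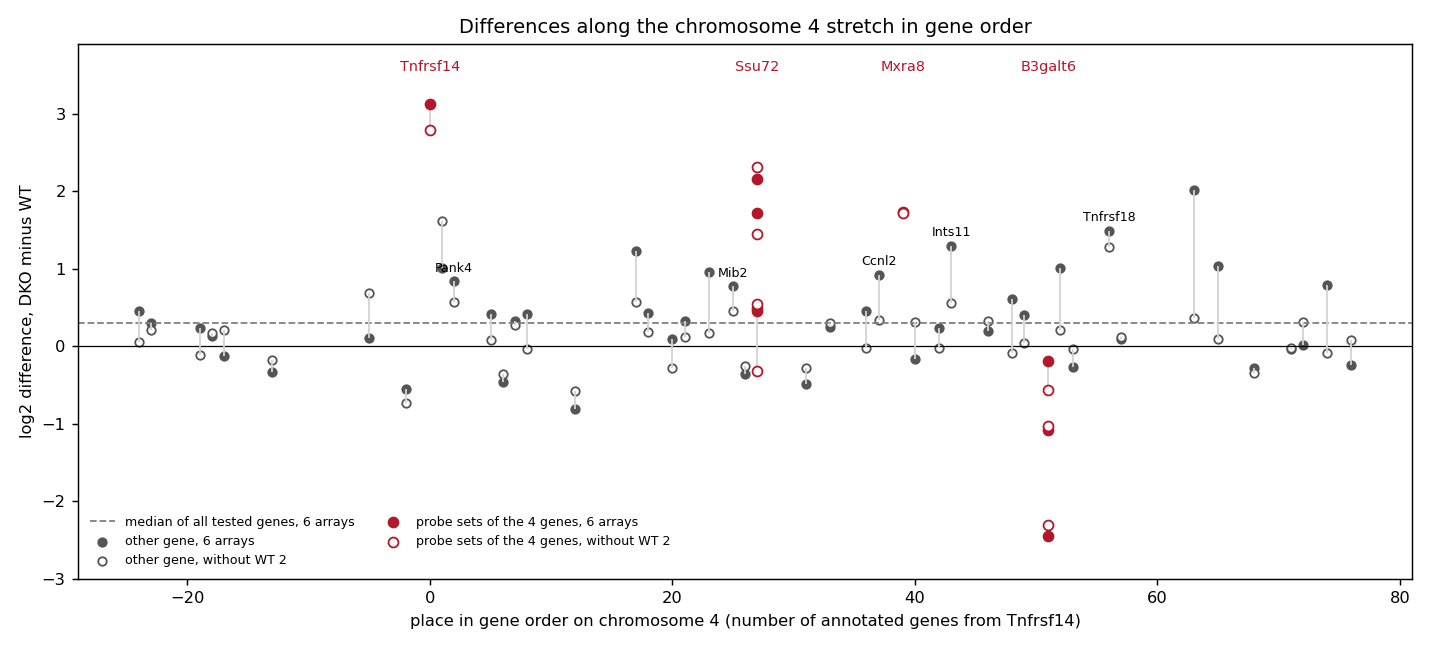
Log2 difference, DKO minus WT, against the place of each gene in the annotated order of chromosome 4, counted from Tnfrsf14; red points are the 9 probe sets of the 4 genes, grey points the 43 other tested genes, filled with all 6 arrays and open without WT 2. The Tnfrsf14, Mxra8 and outlying Ssu72 and B3galt6 points stand away from 0 in both fits, while most genes between them, at a median of 0.41, move towards 0 without WT 2.

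No ligand or partner of TNFRSF14 passed the threshold, and all overlapped between the genotypes. Tnfsf14, which encodes LIGHT, was dim on every array, at 1.57 to 20.3 in DKO and 2.14 to 15.2 in WT, and did not pass the filter on low signal. Lta, the gene of lymphotoxin alpha, differed by 0.59 (standard error 0.55; 0.09 without WT 2), and read 64.6, 159 and 145 in DKO 1 to 3 against 96.8, 69.2 and 117 in WT 1 to 3. Btla, the inhibitory partner, was low in DKO 1 and DKO 2 and not in DKO 3, at 92.2, 75.2 and 1155 against 316, 689 and 924 in WT 1 to 3. Its difference was -1.10 (standard error 1.07; -1.32 without WT 2). Cd160 differed by 0.00 (standard error 0.35) (0.27 without WT 2). Ltb, which builds the membrane form of lymphotoxin, differed by 1.60 with all arrays and by 0.16 without WT 2, where it read 17.7. Ltbr, its receptor, differed by -0.55 (standard error 0.36; -0.62 without WT 2). These 5 tested partners had limma adjusted p of 0.822 to 0.997.

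With the adaptors and kinases that carry the signal to NF-κB and the phosphatases that BTLA recruits, 15 of 17 genes on the list of TNFRSF14 partners were tested. Of these, 12 were on the higher side in DKO and 3 on the lower, with a median of 0.23 (0.05 without WT 2). limma called 0 of them, 0 had an unadjusted p under 0.05, and the groups overlapped in all 15, where among all tested genes 8.53% were higher and 2.06% lower without overlap.

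Other receptors of the tumour necrosis factor superfamily went both ways. Of 24 on the list 17 were tested, 10 on the higher and 7 on the lower side, with a median of 0.31 (0.04 without WT 2). limma called 0 and gave 3 an unadjusted p under 0.05, where 844 of all 27022 tested probe sets had one. The groups did not overlap in 3 of the 17, 2 higher and 1 lower, against the 8.53% and 2.06% of all tested genes. Besides Tnfrsf18 these were Fas, the death receptor, which differed by 1.57 (standard error 0.54) (1.10 without WT 2), and Tnfrsf1a, the broadly expressed receptor of tumour necrosis factor, at -0.84 (standard error 0.41; -0.57 without WT 2). Fas read 108, 256 and 87.1 in DKO 1 to 3 against 80.4, 36.4 and 34.8 in WT 1 to 3, so DKO 3 was close to WT 1. Each had a limma adjusted p of 0.822. Tnfrsf4, the gene of OX40 and the immediate neighbour of Tnfrsf18 among tested genes, read -0.26 (-0.04 without WT 2).

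Genes that act with SSU72 on the tail of RNA polymerase II and in cleavage and polyadenylation did not pass the threshold. Of 27 tested, 26 were on the higher side with a median of 0.43 when all arrays were used, and 12 were higher and 15 lower with a median of -0.06 without WT 2. The 2 whose groups did not overlap were Ctdspl, another tail phosphatase gene, at 0.92 (0.55 without WT 2), and Cdk13, a tail kinase gene, at 0.85 (0.27 without WT 2), with another probe set of Cdk13 at 0.00. These were 2 of 27, both higher, against 8.53% of all tested genes. limma called 0 of the 27, and 0 had an unadjusted p under 0.05.

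The enzymes that build proteoglycan chains around B3GALT6 showed the same dependence on WT 2. Of 19 tested, 15 were higher and 4 lower with a median of 0.47, and the median was 0.07 without WT 2. B3gat3, whose enzyme adds the next sugar of the linker, differed by 1.54 with all arrays and by 0.16 without WT 2, where its signal was 32 and that of the other WT arrays 381 and 439, and its other probe set read -0.34. B4galt7, whose enzyme adds the galactose before that of B3GALT6, differed by -0.21 (standard error 0.33) (-0.12 without WT 2). Chpf2, a chondroitin polymerizing factor gene, differed by 0.96 (0.43 without WT 2), with its other probe set at 0.00. The groups did not overlap in these 3, 2 higher and 1 lower of the 19, where all tested genes gave 8.53% and 2.06%. limma called 0 of the 19, with 0 at an unadjusted p under 0.05.

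Integrins that MXRA8 can bind and genes of matrix remodelling leaned to the lower side in DKO, with 7 of 10 tested lower and a median of -0.33 (-0.12 without WT 2). The integrin genes went both ways, and all overlapped. Itgb3 differed by -1.38 (-1.72 without WT 2), Itgav by -0.30 (0.00 without WT 2) and Itgb1 by 1.34 (-0.09 without WT 2). Itgb3 read 34.5, 62.7 and 98.3 in DKO 1 to 3 against 270, 229 and 203 in WT 1 to 3. Mmp14, a membrane-bound matrix protease gene, read 80.6, 90.0 and 212 in DKO 1 to 3 against 812, 524 and 398 in WT 1 to 3. It differed by -1.79 (standard error 0.56, limma adjusted p = 0.822), and by -2.16 without WT 2. Its other tested probe set read -0.34. Fn1, the fibronectin gene, was on the other side at 0.80 (0.45 without WT 2). Mmp14 and Fn1 were the 2 of 10 whose groups did not overlap, where all tested genes gave 8.53% higher and 2.06% lower. Mmp9, the gene of a matrix protease stored by neutrophils, overlapped at 1.77, 4.02 and 127 in DKO 1 to 3 against 476, 418 and 109 in WT 1 to 3, a difference of -2.70 (-2.76 without WT 2). limma called 0 of the 10, and 3 had an unadjusted p under 0.05, where 844 of all 27022 tested probe sets did. Markers of granulocytes were lower in DKO in 6 of 6 genes with a median of -3.95 (-4.23 without WT 2). Those of macrophages and monocytes were lower in 5 of 6 with a median of -0.54 (6 of 6 and -1.13 without WT 2). The groups overlapped in all of these marker genes, and limma called 0. The part of these cell types in the values of the integrin and matrix list was not tested.

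**Figure D3:**
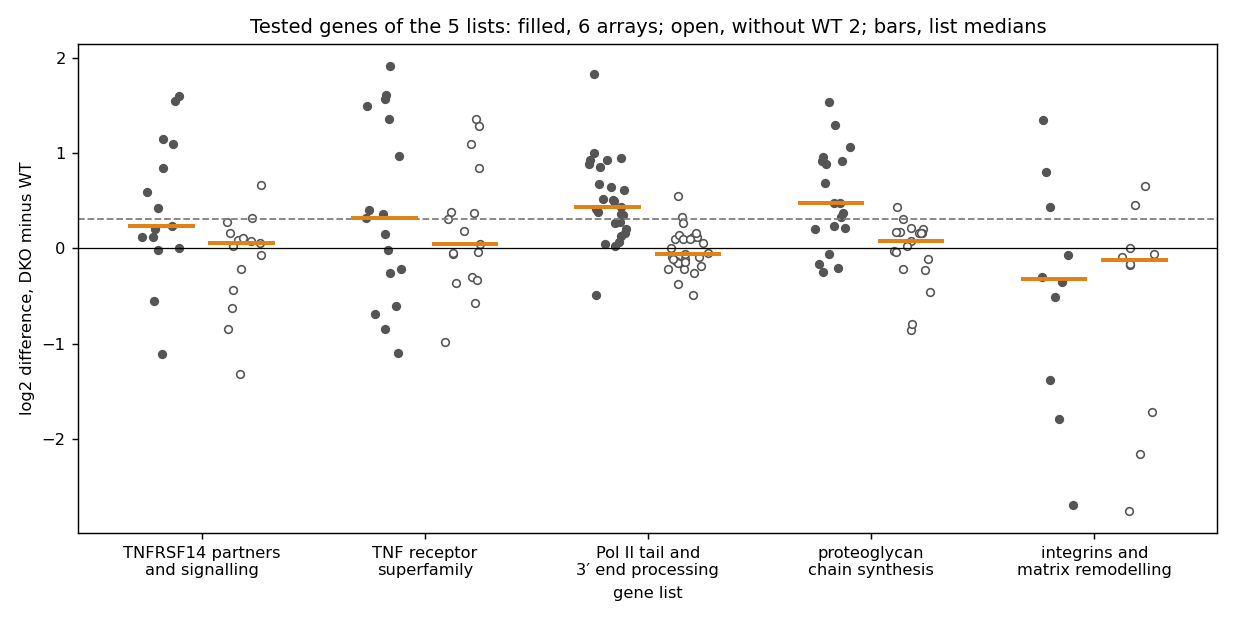
Log2 difference, DKO minus WT, of each tested gene in the 5 lists, filled with all 6 arrays and open without WT 2; orange bars are list medians and the dashed line is the median of all tested genes (0.30). The medians of the first 4 lists, 0.23 to 0.47 with all arrays, lie between -0.06 and 0.07 without WT 2.

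The labelled cells were checked against markers, since TNFRSF14 is made by several blood cell types. In bulk RNA, fewer cells of a type and less RNA per cell cannot be told apart. B lineage markers were bright on every array. Over 6 genes they summed to 73841, 76943 and 50858 in DKO 1 to 3 against 57478, 124767 and 55070 in WT 1 to 3. Summed markers of T and NK cells, over 7 genes, were 4043, 2652 and 623 in DKO 1 to 3 against 700, 1860 and 451 in WT 1 to 3. Most of each sum was Thy1 alone, at 3389, 1617 and 490 in DKO 1 to 3 against 504, 1182 and 276 in WT 1 to 3. Of the 7 genes 5 were higher and 2 lower in DKO, with a median difference of 1.63 (1.69 without WT 2), and limma called 0. The 6 granulocyte markers summed to 435, 415 and 25618 in DKO 1 to 3 against 70136, 176013 and 17928 in WT 1 to 3. In DKO 1 to 3 the 6 macrophage and monocyte markers summed to 14734, 8218 and 17895. In WT 1 to 3 they summed to 31647, 40563 and 10718. The 5 plasma cell markers gave 31872, 27365 and 21073 in DKO 1 to 3 against 19757, 39134 and 22113 in WT 1 to 3. These sums are not centred, and WT 2 was the highest WT array in every marker list. In the B lineage and plasma cell sums DKO 1 and DKO 2, but not DKO 3, were above both WT 1 and WT 3. Within the plasma cell list was Jchain, the joining chain gene of secreted antibodies. It read 6321, 2655 and 1907 in DKO 1 to 3 against 314, 550 and 82.3 in WT 1 to 3. Every DKO array was above every WT array, at a difference of 3.91 (limma adjusted p = 0.428), and of 4.13 without WT 2. The other 4 plasma cell genes overlapped and differed less, in both directions. Sdc1 was lower in DKO, at -1.24 (-0.91 without WT 2). Xbp1 read 0.00 (0.08 without WT 2), Prdm1 0.07 (-0.30 without WT 2) and Mzb1 0.49 (0.27 without WT 2). No gene of these lists was listed at 0 on any array.

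In the signals as deposited, DKO 3 lay within the WT range for the summed markers of T and NK cells (mostly Thy1), granulocytes, macrophages and plasma cells. It was below every WT array for those of B lineage and stromal cells, but the sums are not centred and DKO 3 had the lowest array median (44.0). Most of its plasma cell sum was Xbp1 (7522) and Mzb1 (10908), and most of its macrophage and monocyte sum was Lyz2 (12639). The Jchain signal of DKO 3 (1907) was above every WT array. On that same array Tnfrsf14 (89.8), Mxra8 (169) and Ssu72 probe set 1441282_at (195) were above every WT array, and B3galt6 probe set 1435252_at (11.4) was below every WT array. DKO 1 and DKO 2 were on the same sides in these probe sets. The granulocyte sums of DKO 1 and DKO 2 were below every WT array and their T and NK cell sums, made up mostly of Thy1, above every WT array. The part of any of these markers in the member differences was not tested.

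**Figure D4:**
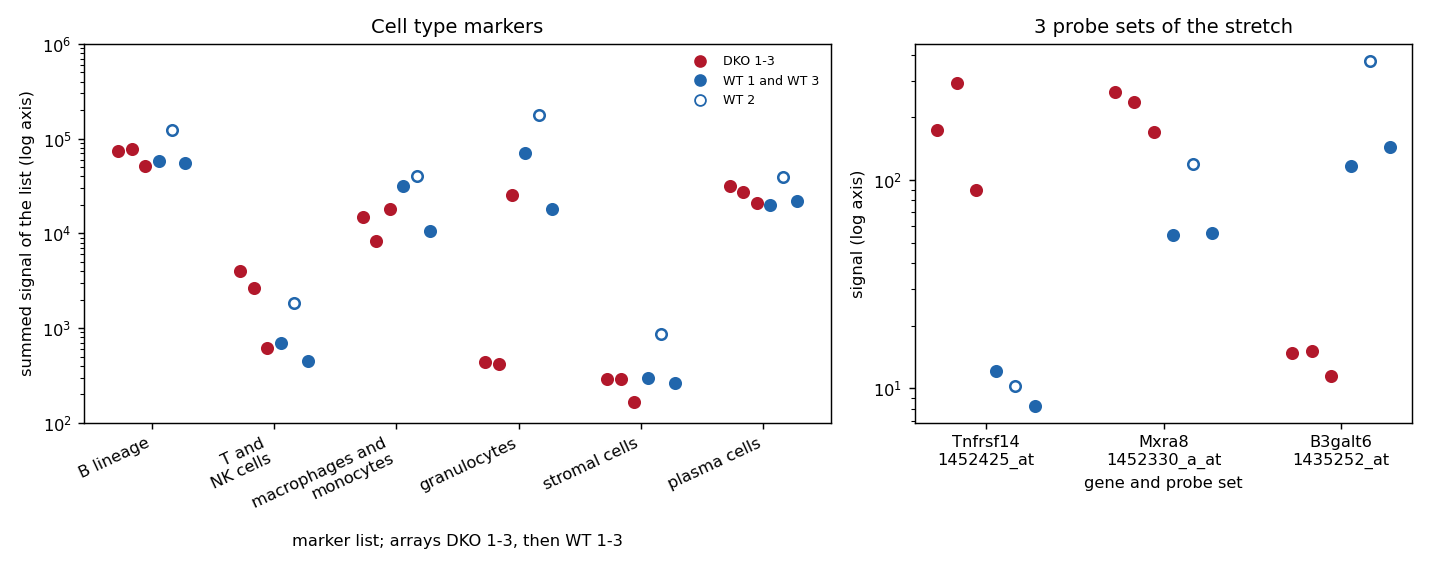
Left, summed signal of 6 marker lists on each array (log axis, DKO 1 to 3 then WT 1 to 3); right, signal of 3 probe sets on the same arrays (log axis). By these sums DKO 3 is within the WT range for T and NK cell (623, mostly Thy1) and granulocyte (25618) markers. Its Tnfrsf14 signal (89.8) is above and its B3galt6 1435252_at signal (11.4) below every WT array.

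The genes most like Tnfrsf14 across the arrays lay mostly elsewhere in the genome. Over all 6 arrays the 5 with the highest Pearson correlation among 12626 other tested genes were Tspyl2, Fbxo2, B230311B06Rik, Afap1 and Ift81, with r of 0.988 to 0.991. Of these only Fbxo2 is on chromosome 4. Afap1, which encodes an actin filament protein, read 2270, 2231 and 1401 in DKO 1 to 3 against 525, 601 and 427 in WT 1 to 3. Mxra8 was the gene in place 25, with r of 0.962, while the brightest probe sets of Ssu72 and B3galt6 had r of 0.36 and -0.09. The other probe sets of Ssu72 had r of 0.93 (1441282_at), 0.88 (1431090_at) and 0.71 (1446225_at), and those of B3galt6 had r of -0.97 (1435252_at) and -0.87 (1440340_at). Without WT 2 the r of Mxra8 was 0.967, and those of the brightest Ssu72 and B3galt6 probe sets were -0.49 and -0.85. Over the 5 arrays without WT 2 the closest were Ift81, Cuta, Tecr, Adamtsl2 and Zfp583, at 0.993 to 0.999, and only Ift81, a gene of intraflagellar transport in cilia, was among the closest in both. These correlations rest on 6 or 5 arrays in 2 groups and are a description. The members were chosen by the difference between these groups, which largely sets their r, so nothing is read from it.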

How the data were processed

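Biotin-labelled RNA of 6 samples was hybridised to 6 Affymetrix arrays. The authors deposited 1 intensity per probe set and array on a linear scale, with MAS5 named in the submitters' processing notes. Its version, the genome build and detection calls were not stated there. Each array's mean, after dropping 2% of values at either end, was 500.0. Of 45101 probe sets, 64 controls served only for quality. Of the other 45037, 34945 had 1 listed symbol, 932 several and 9160 none, and 34741 of the first were matched to the RefSeq table of GRCm38.p6, which gave gene names and gene order. Promoter windows are RefSeq's.

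Values were taken as log2(intensity + 16). Array medians differed by 1.13, above a limit of 0.5, so arrays were centred. The 27022 probe sets above percentile 40 of mean log2 signal were fitted with limma 3.58.1 (R 4.3.3, variance trend, group as the single term, two-sided), adjusted over all of them. The fit was tried on simulated data with 50 probe sets changed at each size. It recovered 0% at a log2 change of 1, then 2% at 2 and 60% at 4. A gene that was not called may therefore still differ by such an amount. Python 3.11.15, numpy 2.4.6, pandas 2.3.3 and matplotlib 3.10.9 made tables and figures.

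The members, the lists and the naming rule were chosen with earlier results of these data known. Named were all probe sets of the members; their nearest tested neighbours, added after values were seen; up to 6 genes of the stretch on each side whose groups do not overlap; for each list up to 4 such genes; TNFRSF14's direct partners; and the 5 genes most correlated with it. Tnfrsf4, Mmp9, the integrin genes and the cell markers named singly were named after values were seen. Alternatives were no filter or one at percentile 60, pseudocounts of 64 and 1, quantile normalization, no centring, no trend, array weights, each array left out, the replicate number as a block, and the median over a gene's probe sets.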

Additional observations from a re-analysis of the deposited data

How the results depend on the processing

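The 7 member probe sets whose genotypes did not overlap kept the same sign under quantile normalization, without centring and with both other pseudocounts. The replicate block and leaving 1 array out could not turn the sign where groups do not overlap, so nothing is read from those settings. The sign turned for the brightest Ssu72 probe set, which ranged from -0.32 without WT 2 to 1.07 without WT 3, and for the brightest B3galt6 probe set, which ranged from -0.56 without WT 2 to 0.029 without WT 3, and the cause was not tested. Tnfrsf14 differed by 4.28 with a pseudocount of 1 and 1.87 with 64, and Mxra8 by 1.98 and 1.25, and by 1.42 without centring. The median of the other genes of the stretch was -0.011 without centring, where that of all tested genes was -0.0080. The median of the TNF receptor list was 0.016 with quantile normalization and 0.0022 without centring, and 0.045 (without WT 2) to 0.30 with 1 array left out. That of the integrin and matrix list was -0.58 and -0.64, and -0.51 (without WT 3) to -0.12 (without WT 2). The proteoglycan list's median went from 0.47 to -0.02 and that of the polymerase tail list from 0.43 to 0.05 with quantile normalization, and that of the TNFRSF14 partners from 0.23 to -0.08 without centring. Quantile normalization moved the median of all tested genes from 0.30 to 0.01. The number of calls over all probe sets, 2 in limma, was 0 with quantile normalization, without centring, with a pseudocount of 1 and with the replicate block, 1 with a filter at percentile 60, and 0 to 7 with 1 array left out, the highest without WT 2. Default array weights stopped before convergence and gave 8129 calls with weights from 0.0526 on WT 2 to 30.8 on WT 1, and the gene-by-gene method, chosen after seeing the data, gave 922. Same-numbered arrays of the genotypes were not paired throughout, with correlations of their deviations of -0.15, 0.00 and 0.33. The last, of DKO 3 with WT 3, was the highest of any DKO and WT array, followed by 0.32 for DKO 1 with WT 2. Across probe sets, the highest correlation with any other array was 0.982 for both DKO 3 and WT 3, and 0.977 for both DKO 1 and DKO 2.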
